A study of Mus musculus with 10 samples.

Results

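The genes described here carry glucose into the cell and through glycolysis. They are 10 of the 52181 gene entries of a single-cell RNA table of macrophages and microglia from mouse retina and optic nerve, and 10 of the 11904 genes with a unique molecular identifier (UMI, the tag that marks 1 captured RNA molecule) in both tissues. The genes were listed by name and function: Hif1a, Slc2a1, Hk2, Aldoa, Tpi1, Gapdh, Pgk1, Eno1, Pkm and Ldha. All 10 were found in the table, with 505 UMIs behind Slc2a1 and up to 9789 behind Gapdh. All mice were wildtype, of the strain labelled 129S1/SvlmJ, of both sexes and 10 weeks old. Injured optic nerve comprised 2 libraries, 1 and 3, and uninjured optic nerve 2 libraries, 2 and 4. Injured retina comprised 4 samples that the table holds as 2 pools, 1 with 2 and 3 with 4, and uninjured retina comprised 2 libraries, 5 and 6. Injured mice had an optic nerve crush, which cuts off the axons of retinal ganglion cells, at 8 weeks, 2 weeks before collection. No control for the surgery itself is among the 4 groups, and nothing in the labels says how many animals each library came from.

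Glycolysis splits glucose into pyruvate in the cytosol and yields ATP without oxygen. SLC2A1 (GLUT1) lets glucose in, hexokinase traps it as glucose 6-phosphate, and the enzymes from aldolase to pyruvate kinase carry it to pyruvate, which lactate dehydrogenase turns into lactate. HIF-1, whose alpha subunit is encoded by Hif1a, is the transcription factor of the hypoxia response and is known to raise many of these genes, and activated macrophages and microglia are known for a shift towards glycolysis. HIF-1 alpha is controlled mainly through the stability of its protein, which RNA counts do not measure.

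RefSeq starts (GRCm38.p6) were matched for all 10 genes, 16 starts in all. The 250 bases before each start were searched on both strands for ACGTG, with CACGT as its reverse complement. ACGTG is one form of the core that HIF-1 recognises. The other form, GCGTG, was not searched for. Overlapping matches, such as those within CACGTG, were counted as 1 place. At least 1 start of 7 of the 10 genes and 8 of the 16 starts held the motif, against 5439 of 32817 starts of all genes (16.6%). The Ldha window held 3 places and the Hif1a, Hk2 and Pgk1 windows 2 each, whereas no window of Tpi1, Gapdh or Eno1 held any. A match is a description of letters and not a binding site. The 4 windows with more than 1 place are given 5′ to 3′ along the gene, with the motif in capitals, because they belong to the regulator, the first enzyme and 2 later enzymes whose RNA is compared below, and no annotated exon lies in them.
Hif1a (chr12:73907617-73907866, plus strand): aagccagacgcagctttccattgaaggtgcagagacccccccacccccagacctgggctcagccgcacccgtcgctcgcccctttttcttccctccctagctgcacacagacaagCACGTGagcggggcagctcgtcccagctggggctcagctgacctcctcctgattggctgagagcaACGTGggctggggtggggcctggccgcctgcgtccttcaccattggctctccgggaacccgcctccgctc
Hk2 (chr6:82774455-82774704, minus strand): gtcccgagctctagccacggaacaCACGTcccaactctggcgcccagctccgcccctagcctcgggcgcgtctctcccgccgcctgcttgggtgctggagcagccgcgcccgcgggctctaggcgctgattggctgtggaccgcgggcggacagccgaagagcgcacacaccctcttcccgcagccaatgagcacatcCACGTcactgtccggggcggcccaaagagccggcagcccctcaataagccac
Pgk1 (chrX:106186850-106187099, plus strand): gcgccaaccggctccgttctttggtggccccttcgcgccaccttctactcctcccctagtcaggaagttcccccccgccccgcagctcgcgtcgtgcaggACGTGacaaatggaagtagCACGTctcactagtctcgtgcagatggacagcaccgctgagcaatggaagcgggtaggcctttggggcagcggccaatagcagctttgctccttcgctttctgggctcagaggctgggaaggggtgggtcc
Ldha (chr7:46845554-46845803, plus strand): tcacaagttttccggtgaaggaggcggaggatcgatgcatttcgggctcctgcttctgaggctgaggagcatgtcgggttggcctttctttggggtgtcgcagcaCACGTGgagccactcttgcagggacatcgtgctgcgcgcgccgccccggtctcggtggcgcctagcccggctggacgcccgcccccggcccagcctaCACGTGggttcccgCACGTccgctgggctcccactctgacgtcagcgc

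The libraries differed in size and in cells. Injured optic nerve had 146 and 682 cells with 328114 and 5424786 UMIs, and uninjured optic nerve 103 and 28 cells with 358305 and 85976 UMIs. Injured retina had 109 and 57 cells with 1420930 and 310892 UMIs, and uninjured retina 31 and 12 cells with 142787 and 56838 UMIs. The median depth ran from 1159 UMIs per cell in injured optic nerve library 1 to 12989 in the first injured retina pool. Of 12 microglia markers, 11 or 12 were detected in every library, and rod and cone markers summed to at most 70 and 7 CPM (CPM is the share of the library's UMIs that a gene holds, put on one scale for every library). Other cells were present: T and NK cell-like cells made up 20.2% and 42.1% of the cells of the injured retina pools and no cell of uninjured retina, and oligodendrocyte-like cells made up 9.59% and 6.89% of injured against 26.2% and 14.3% of uninjured optic nerve libraries. Injured optic nerve library 3 stood apart, since 182 deep cells (cluster 5, median 22466 UMIs over the cluster) held 77.2% of its UMIs. There were 2 barcodes that each occurred in 2 libraries. Levels below are CPM of all cells of a library with 95% exact Poisson intervals in the plot, and a lower level in a library can mean fewer cells of a type or less RNA per cell, which cannot be told apart in summed counts.

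**Figure D1:**
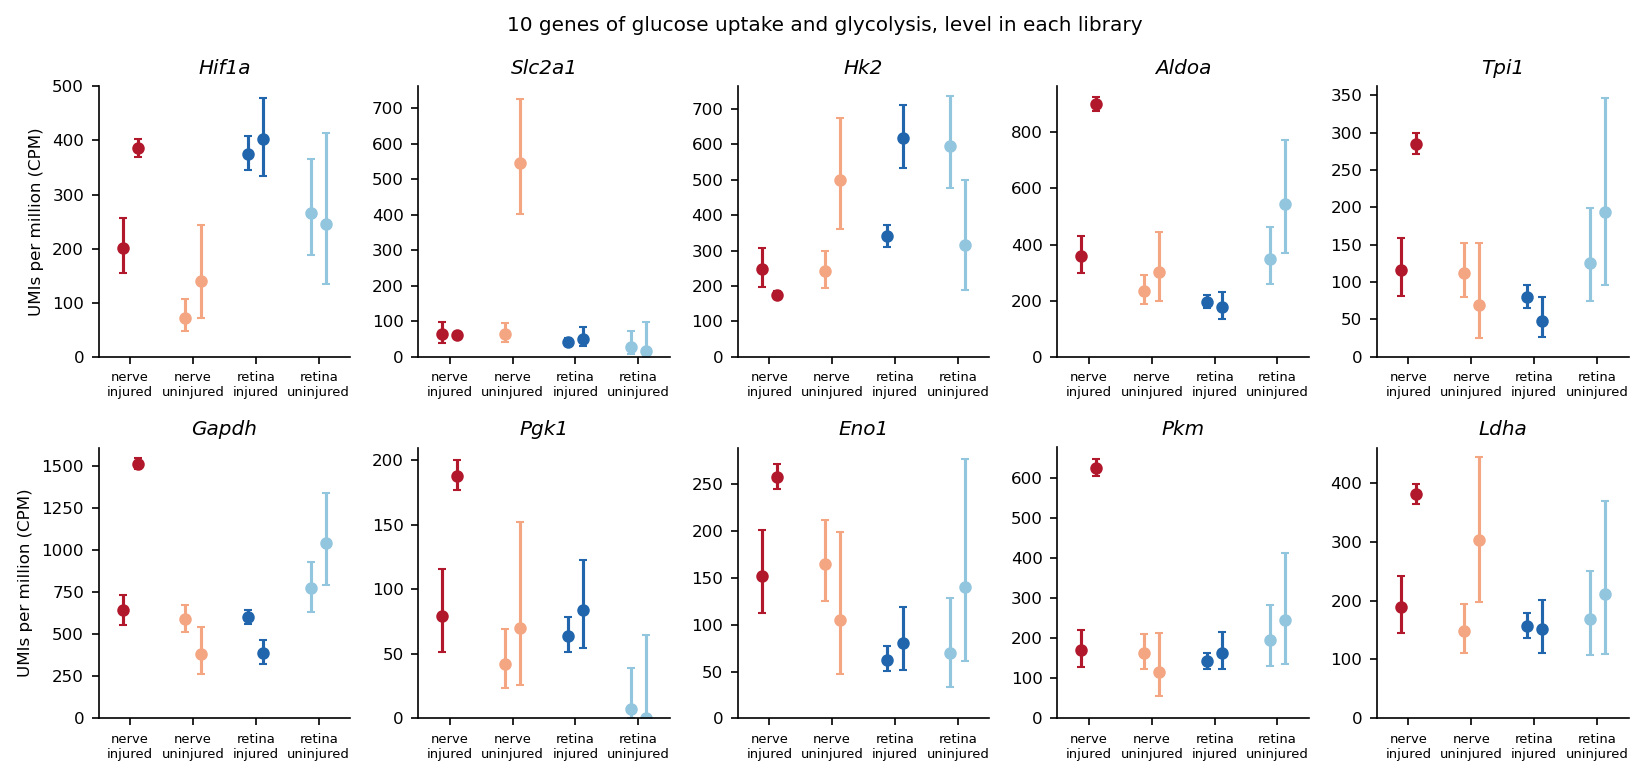
Level of each gene (y axis, CPM, linear, from 0) in each library (points) of the 4 groups (x axis), with bars for the 95% exact Poisson interval, which covers counting error only. Injured optic nerve library 3 was the highest of all 8 libraries for Aldoa, Tpi1, Gapdh, Pgk1, Eno1, Pkm and Ldha, and Slc2a1 reached 547 CPM in uninjured optic nerve library 4.

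Injury was compared within each tissue first. Of the 7 enzymes from Aldoa to Ldha, 5 were higher in both injured libraries of the optic nerve than in both uninjured ones, and 5 were lower in both injured pools of the retina, with 4 genes in both sets. Among 5298 genes, 15.2% were higher in this way in the optic nerve, 24.5% were lower in the retina and 3.42% did both. The 7 together summed to 1707 and 4147 CPM in injured optic nerve libraries, against 1451 and 1349 CPM in uninjured ones. They summed to 1301 and 1094 CPM in injured retina pools, against 1688 and 2375 CPM in uninjured retina libraries. Both injured sums therefore lay above both uninjured sums in the optic nerve and below both in the retina. Cell makeup moved with injury and also differed between the uninjured optic nerve libraries. Border macrophage-like cells made up 6.16% and 4.55% of the cells of injured against 44.7% and 3.57% of uninjured optic nerve libraries. They held 61.3% of the UMIs of uninjured library 2. In uninjured library 4, the unnamed cluster 2 held 39.3% and endothelial-like cells 30.4% of the UMIs. Lipid-associated phagocyte-like cells, the class described below with the highest level of 6 of the 10 genes, made up 65.8% and 47.9% of the cells of injured against 9.71% and 28.6% of uninjured optic nerve libraries. Of their 8 markers, 8 and 8 were detected in injured and 7 and 6 in uninjured optic nerve libraries, with Gpnmb at 0 in both uninjured ones, and the markers summed to 3496 and 24094 CPM against 871 and 651 CPM. In the retina, of 6 monocyte markers 5 and 3 were detected in injured pools, with a sum of 472 and 380 CPM, against 1 and 0 in uninjured libraries, with a sum of 7 and 0 CPM and Ccr2 and Ly6c2 at 0 in both. The part of this makeup in the sums was not tested. Without T and NK cell-like, oligodendrocyte-like and endothelial-like cells the sums were 1790 and 4209 CPM in injured against 1384 and 1039 CPM in uninjured optic nerve, and 1296 and 1039 CPM in injured against 1695 and 2375 CPM in uninjured retina.

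Tests across all genes called few of the 10. In the retina, edgeR's quasi-likelihood test on counts summed per library called 653 of 3312 genes (19.7%) at a Benjamini-Hochberg adjusted p under 0.05, and of the 9 genes of the list it could test, 1 rose and 1 fell. Slc2a1 had too few counts to be tested there. In the optic nerve, limma on the mean ln value per library (natural log of 1 plus 10000 times a cell's UMIs over its total) called 30 of 5298 genes (0.566%) and 0 of the 10, of which 2 had an unadjusted p under 0.05. On recovered counts of the optic nerve edgeR called 53 of 5508 genes and 0 of the 10, and DESeq2 called 71 of 10876 genes and 1 of the 10. The difference of the 2 injury effects was tested in 1 limma model over all 8 libraries. It was called for 297 of 5298 genes (5.61%) and for 0 of the 10, of which 2 had an unadjusted p under 0.05. On recovered counts it was called by edgeR for 72 of 5508 genes and 0 of the 10, and by DESeq2 for 124 of 10876 genes and 1 of the 10. The median effect of the list was 0.27 in the optic nerve beside -0.02 over all genes tested (difference of mean ln values), and -0.43 in the retina beside 0.07 over all genes tested (log2 fold change). The 2 tissues were tested on different scales, so these medians are not compared with each other. With 2 libraries per group, single-gene differences had to be large to pass, and the p-values measure the spread between libraries, which nothing in the labels ties to separate animals. Uninjured retina, unlike the other groups, has 0 UMIs in the last 24183 entries of the table. For every gene called in the retina, injury and this difference in the table cannot be told apart. The difference of the injury effects and the comparison of uninjured tissues below use the same uninjured retina libraries, so their calls share this limit.

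**Figure D2:**
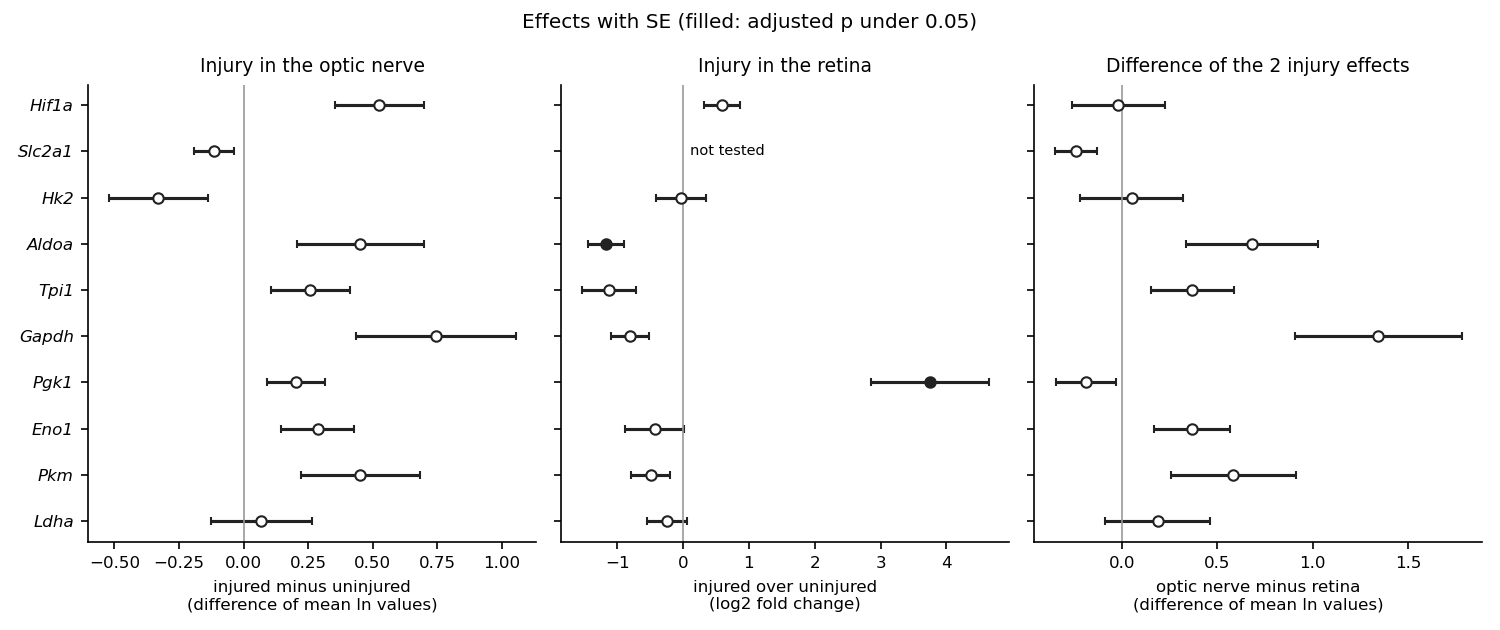
Effects (x axes) with standard errors (bars) for each gene (rows) in the optic nerve, in the retina and for the difference of the 2 injury effects; the optic nerve and difference panels are in ln units and the retina panel is in log2 units. Filled points passed an adjusted p of 0.05: Pgk1 at 3.75 and Aldoa at -1.17, both in the retina.

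Hif1a (chr12:73901375-73947530, plus strand, GRCm38 with GENCODE M21 genes, as for all genes below) encodes the oxygen-regulated subunit of HIF-1. Its level was 201 and 387 CPM in injured optic nerve, against 72.6 and 140 CPM in uninjured optic nerve. In the retina it was 376 and 402 CPM in injured pools, against 266 and 246 CPM in uninjured libraries. Both injured libraries lay above both uninjured ones in each tissue, the direction shared by 15.2% of 5298 genes in the optic nerve and by 32.5% in the retina. Neither difference passed the test. The difference of mean ln values in the optic nerve was 0.53 ± 0.17 (SE, limma, adjusted p = 0.282), and the log2 fold change in the retina was 0.59 ± 0.28 (SE, edgeR, adjusted p = 0.150). DESeq2 on recovered counts called the optic nerve difference (log2 fold change 1.85, adjusted p = 0.0482), and limma on ln values called the retina difference (0.55, adjusted p = 0.0365). Of the 12 Hif1a UMIs of uninjured optic nerve library 4, 9 came from 2 endothelial-like cells, and without endothelial-like cells the levels were 201 and 378 CPM in injured and 73.7 and 50.1 CPM in uninjured optic nerve. A gene on the same strand, Gm49321, overlaps the 3′ part of Hif1a, so reads of the pair may have been split.

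Slc2a1 (chr4:119108711-119137983, plus strand) encodes the glucose transporter GLUT1, which is abundant in the endothelium of the blood-brain and blood-retina barriers. It had 64 and 61.8 CPM in injured optic nerve, against 64.2 and 547 CPM in uninjured optic nerve. It had 40.8 and 51.5 CPM in injured retina, against 28 and 17.6 CPM in uninjured retina, where only 4 UMIs and 1 UMI were counted. Both injured libraries lay below both uninjured ones in the optic nerve, as did those of 24.3% of genes, and above them in the retina, a combination seen in 6.89% of genes. The value of 547 CPM stood alone among the 8 libraries. In that library 45 of 47 Slc2a1 UMIs (95.7%) lay in 2 endothelial-like cells, and over all libraries 9 endothelial-like cells held 97 of 505 UMIs (19.2%). Without endothelial-like cells the levels were 64 and 54 CPM in injured optic nerve, against 51 and 33.4 CPM in uninjured optic nerve, so that both injured libraries lay above both uninjured ones instead of below them. The limma difference of mean ln values was -0.11 ± 0.08 (SE, adjusted p = 0.779) over all cells and 0.02 without T and NK cell-like, oligodendrocyte-like and endothelial-like cells (adjusted p = 0.983). The 14 endothelial markers summed to 85.3 and 241 CPM in injured and 455 and 4908 CPM in uninjured optic nerve.

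**Figure D3:**
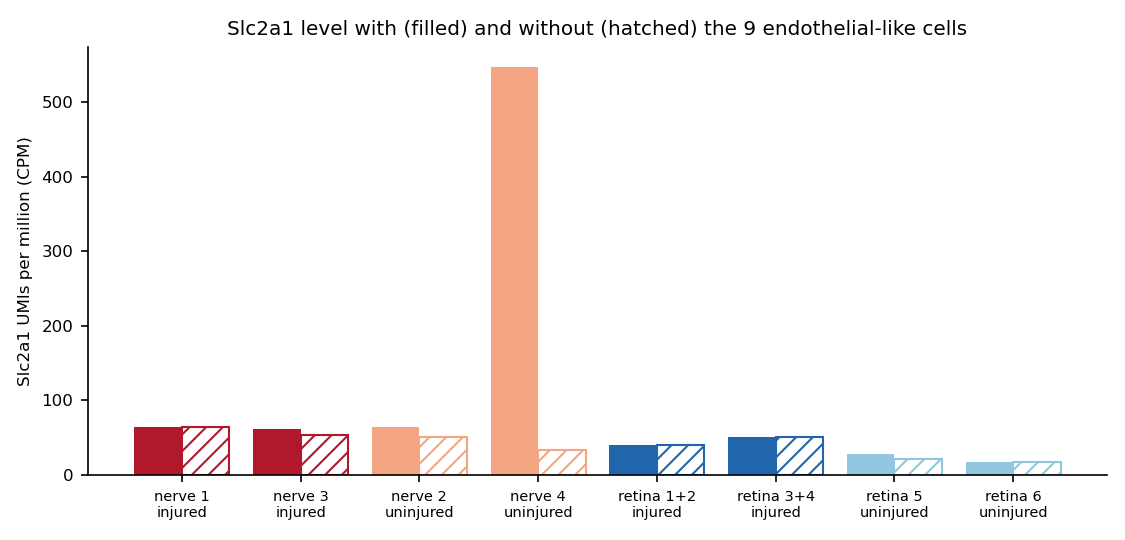
Slc2a1 level (y axis, CPM, from 0) in each of the 8 libraries (x axis), over all cells (filled bars) and without the 9 endothelial-like cells (hatched bars). Uninjured optic nerve library 4 had 547 CPM with and 33.4 CPM without its 2 endothelial-like cells, while the bars of each other library lie closer together.

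Hk2 (chr6:82725025-82774454, minus strand) encodes hexokinase 2, the inducible enzyme of the first step. Its level was 247 and 175 CPM in injured optic nerve, against 243 and 500 CPM in uninjured optic nerve. It was 340 and 618 CPM in injured retina, against 595 and 317 CPM in uninjured retina. The groups overlapped in both tissues. Its difference of mean ln values in the optic nerve was -0.33 ± 0.19 (SE, limma, adjusted p = 0.712), and its log2 fold change in the retina -0.03 ± 0.38 (SE, edgeR, adjusted p = 0.966). Whether Hk2 differed from the later enzymes in its response was not tested. The retina value changed sign under several settings, up to 0.87 without library 5.

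Aldoa (chr7:126795234-126800751, minus strand) encodes aldolase A, which splits fructose 1,6-bisphosphate. It had 360 and 900 CPM in injured optic nerve, against 234 and 302 CPM in uninjured optic nerve. It had 195 and 177 CPM in injured retina, against 350 and 545 CPM in uninjured retina. Injured libraries lay above uninjured ones in the optic nerve and below them in the retina, without overlap in either, and 15.2% of genes were higher in this way in the optic nerve and 24.5% lower in the retina. Aldoa fell in injured retina (log2 fold change -1.17 ± 0.28, SE, edgeR, adjusted p = 0.0143), by 1.17 on the log2 scale in a comparison that called 9.72% of genes as lower. That call was lost without the pool of samples 1 and 2 (-1.18, adjusted p = 0.0780), without the pool of samples 3 and 4 (-0.96, adjusted p = 0.106), without library 6 (-0.96, adjusted p = 0.0580), with DESeq2 (-1.08, adjusted p = 0.0512), with no filter on low counts (-0.96, adjusted p = 0.113), with edgeR over all 8 libraries (-1.14, adjusted p = 0.167) and with limma on mean ln values (-0.23 in ln units, adjusted p = 0.558). The optic nerve difference of mean ln values, 0.45 ± 0.25 (SE, limma, adjusted p = 0.683), did not pass and was -0.03 without library 3. For the optic nerve the table repeats the Aldoa values under a further Ensembl entry of the same symbol, which was left out. Without T and NK cell-like and other non-myeloid cells the levels in the retina were 195 and 163 CPM in injured and 355 and 545 CPM in uninjured libraries, so the gap was as wide.

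Tpi1 and Gapdh act next. Tpi1 (chr6:124810586-124814296, minus strand) encodes triose phosphate isomerase, which interconverts the 2 products of aldolase. It had 116 and 285 CPM in injured optic nerve, against 112 and 69.8 CPM in uninjured optic nerve, and the nearest libraries of the 2 groups were 116 and 112 CPM. In the retina it had 79.5 and 48.3 CPM in injured pools, against 126 and 194 CPM in uninjured libraries. Gapdh (chr6:125161715-125166467, minus strand) encodes glyceraldehyde 3-phosphate dehydrogenase, the step that makes NADH. It had 640 and 1510 CPM in injured optic nerve, against 589 and 384 CPM in uninjured optic nerve, and 600 and 389 CPM in injured retina, against 770 and 1038 CPM in uninjured retina. Like Aldoa, both genes were higher with injury in the optic nerve libraries and lower in the retina libraries. None of these differences passed. For Gapdh the optic nerve difference of mean ln values was 0.74 ± 0.31 (SE, limma, adjusted p = 0.522) and the retina log2 fold change -0.80 ± 0.29 (SE, edgeR, adjusted p = 0.0717). For Tpi1 these were 0.26 ± 0.15 (adjusted p = 0.731) and -1.12 ± 0.41 (adjusted p = 0.0761). Gapdh has 77 near-identical copies in the annotation, 75 of them pseudogenes, and the 2 copies in the table held 1 UMI in all against 9789 for Gapdh.

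Pgk1 (chrX:106187100-106203699, plus strand) encodes phosphoglycerate kinase 1, the first step that makes ATP. It had 79.2 and 188 CPM in injured optic nerve, against 41.9 and 69.8 CPM in uninjured optic nerve. In the retina it had 91 and 26 UMIs (64 and 83.6 CPM) in injured pools, against 1 UMI (7 CPM) and 0 UMIs in uninjured libraries, where a count of 0 allows up to 52.8 CPM. Pgk1 was higher in both injured libraries of both tissues. It rose in injured retina (log2 fold change 3.75 ± 0.90, SE, edgeR, adjusted p = 0.0154), in a comparison that called 9.99% of genes as higher, and the ratio of summed counts was 13.5 with a 95% counting interval of 2.37 to 537. The call was lost without the pool of samples 1 and 2 (3.94, adjusted p = 0.0501) and with edgeR over all 8 libraries (3.85, adjusted p = 0.0509). DESeq2 gave Pgk1 no adjusted p, and without the pool of samples 3 and 4 it had too few counts to be tested. Its optic nerve difference of mean ln values was 0.20 ± 0.11 (SE, limma, adjusted p = 0.689), and -0.01 without library 3. Pgk1 has 4 near-identical pseudogene copies, of which Pgk1-rs7 is in the table with 0 UMIs.

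Eno1 (chr4:150236721-150248879, plus strand) encodes enolase 1, the step before pyruvate kinase. It had 152 and 258 CPM in injured optic nerve, against 165 and 105 CPM in uninjured optic nerve, and 62.6 and 80.4 CPM in injured retina, against 70 and 141 CPM in uninjured retina. The groups overlapped in both tissues. A near-identical gene, Eno1b, held 35 UMIs against 1651 for Eno1. Pkm (chr9:59656368-59679375, plus strand) encodes the muscle-type pyruvate kinase, which makes pyruvate and ATP. Its level was 171 and 625 CPM in injured optic nerve, against 162 and 116 CPM in uninjured optic nerve, and 143 and 164 CPM in injured retina, against 196 and 246 CPM in uninjured retina. Pkm was therefore higher in both injured libraries of the optic nerve and lower in both of the retina, though libraries 1 and 2 of the optic nerve differed by less than their counting intervals. Its differences, 0.45 ± 0.23 in the optic nerve (SE, limma, difference of mean ln values, adjusted p = 0.639) and -0.49 ± 0.30 in the retina (SE, edgeR, log2 fold change, adjusted p = 0.259), did not pass. Ldha (chr7:46841475-46855627, plus strand) encodes the lactate dehydrogenase subunit that favours lactate. It had 189 and 380 CPM in injured optic nerve, against 148 and 302 CPM in uninjured optic nerve, and the groups overlapped. In the retina it had 157 and 151 CPM in injured pools, against 168 and 211 CPM in uninjured libraries, with intervals that overlap.

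Set side by side in CPM, 4 of the 10 genes, Aldoa, Tpi1, Gapdh and Pkm, were higher in both injured optic nerve libraries and lower in both injured retina pools, a pattern of 3.42% of 5298 genes. The count was also 4 without T and NK cell-like, oligodendrocyte-like and endothelial-like cells. In mean ln values over all cells Gapdh alone of these 4 genes kept the pattern. Gapdh came nearest to a call for the difference of the 2 injury effects, at 1.34 ± 0.44 (SE, limma, optic nerve effect minus retina effect in ln units, adjusted p = 0.0778). The 2 injured optic nerve libraries themselves were far apart. Library 3 exceeded library 1 by 3.66 times for Pkm, 2.5 times for Aldoa, 2.46 times for Tpi1, 2.37 times for Pgk1 and 2.36 times for Gapdh. Hk2 went the other way, at 0.708 of library 1. Without library 1 the limma effects for injury in the optic nerve were 1.26 for Gapdh and 0.96 for Pkm. Without library 3, 3 effects of the 10 genes lay above 0 and 7 below. The size of the optic nerve effect in these enzymes, in mean ln values, therefore rested on library 3. So did its direction for Aldoa, Tpi1, Pgk1 and Pkm, which were -0.033, -0.054, -0.012 and -0.061 without that library. Gapdh stayed above 0, at 0.23.

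The tissues were then compared at equal injury status. Among injured libraries limma called 713 of 5298 genes (13.5%) in all and 12.7% as lower in the optic nerve, among them 1 of the 10. Hif1a was lower in the optic nerve (difference of mean ln values, optic nerve minus retina, -0.59 ± 0.17, SE, limma, adjusted p = 0.0306). Its CPM overlapped, however, at 201 and 387 in injured optic nerve and 376 and 402 in injured retina. After cells were thinned to 1000 UMIs the limma difference was -0.25 (adjusted p = 0.892). Thinning left out cells with fewer UMIs, so the cells changed along with the depth. It left out 66 of 146 and 182 of 682 cells of injured optic nerve libraries 1 and 3, and 0 of injured retina. EdgeR on recovered counts gave -0.24 on the log2 scale (adjusted p = 0.773). Other methods called other genes, in the other direction. The limma effects of Aldoa, Tpi1 and Eno1 were also above 0 (0.40, 0.23 and 0.29) but were not called. On recovered counts edgeR called 193 of 5508 genes as higher in the optic nerve and 190 as lower. Of the 10 it called 3 as higher and 0 as lower. They were Aldoa (log2 fold change 1.92, adjusted p = 0.0216), Tpi1 (1.78, adjusted p = 0.0417) and Eno1 (1.71, adjusted p = 0.0313). DESeq2 called 139 of 10876 genes as higher and 119 as lower, and of the 10 Aldoa alone (1.92, adjusted p = 0.00597). Without optic nerve library 1 the limma effects of Aldoa, Tpi1 and Pkm were 0.88, 0.54 and 0.78. Without T and NK cell-like, oligodendrocyte-like and endothelial-like cells limma called Hif1a and Hk2 (-0.80, adjusted p = 0.0214) as lower. The median depth of injured cells was 1159 and 2176.5 UMIs in the optic nerve and 12989 and 3853 UMIs in the retina. Among uninjured libraries limma called 531 genes (10.0%) in all and 8.25% as lower in the optic nerve, among them 2 of the 10, Hif1a (-0.57 ± 0.17, SE, adjusted p = 0.0413) and Gapdh (-1.01 ± 0.31, SE, adjusted p = 0.0467), both lower in the optic nerve. For both genes the CPM of both uninjured optic nerve libraries lay below that of both uninjured retina libraries. Leaving out any 1 of the 4 uninjured libraries ended both calls, with differences of -0.64 to -0.50 for Hif1a and -1.16 to -0.85 for Gapdh. Neither was called with no filter on low values, with thinned cells, with edgeR or DESeq2 on recovered counts or with limma on log2 CPM, although both stayed below 0. DESeq2 called Slc2a1 as higher in the optic nerve (log2 fold change 3.46, adjusted p = 0.00965), beside 79 of 10876 genes called as higher. Limma on log2 CPM called Slc2a1 (2.65, adjusted p = 0.0478) and Pgk1 (2.30, adjusted p = 0.0214) as higher and 0 of the 10 as lower, beside 230 of 5298 genes called as higher. In uninjured optic nerve library 4, however, 45 of 47 Slc2a1 UMIs lay in 2 endothelial-like cells. Uninjured retina had only 5 UMIs of Slc2a1 and 1 UMI of Pgk1.

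The genes also differed in level between cell classes. Cells had been clustered without the 10 genes and without the other pathway genes named below, so that the levels were not used in the grouping. The largest class was lipid-associated phagocyte-like (441 cells, led by Apoc1, Spp1, Lpl and Lgals3). It had the highest summed level of 6 of the 10 genes: Aldoa at 1172 CPM, Tpi1 at 321, Gapdh at 2120, Pgk1 at 231, Eno1 at 352 and Pkm at 803 CPM. Injured optic nerve library 3 gave 327 of its 441 cells and most of its UMIs. In that library its levels were 1328 CPM for Aldoa, 377 for Tpi1, 2400 for Gapdh, 264 for Pgk1, 375 for Eno1 and 942 CPM for Pkm. In injured library 1 they were 492 CPM for Aldoa, 80.4 for Tpi1, 924 for Gapdh, 90.4 for Pgk1, 241 for Eno1 and 181 CPM for Pkm, and Tpi1 was then below its level in cluster 2 (115 CPM). Over all cells of the class its Hk2 level was 99.4 CPM. Hk2 was highest in microglia-like cells (606 CPM), the unnamed optic nerve cluster 2 (541 CPM) and cluster 1 of injured retina (429 CPM), and low in T and NK cell-like (37.1 CPM), oligodendrocyte-like (33.8 CPM) and endothelial-like cells (8.93 CPM, 1 UMI). Cluster 1 was led by Atp6v0c, Nme2 and Rnasek, with heat-shock genes such as Hspa1b and Hsph1 also among its leading genes. It held only injured retina cells, and 37 of the 43 microglia-like cells were from uninjured retina, so class and injury cannot be told apart in the retina. Endothelial-like cells had the highest level of Slc2a1 (866 CPM), Hif1a (750 CPM) and Ldha (545 CPM), from 9 cells. T and NK cell-like cells followed for Hif1a at 581 CPM, and injured retina without them and the other non-myeloid cells still had 356 and 387 CPM of Hif1a, against 268 and 246 CPM in uninjured retina. Border macrophage-like cells had the lowest Slc2a1 level, 14 CPM. After thinning to 1000 UMIs per cell the Hk2 level was 117 CPM in lipid-associated phagocyte-like, 702 CPM in cluster 2 and 881 CPM in microglia-like cells. Cells with fewer than 1000 UMIs were left out of these levels. They cover 222 of 441 lipid-associated phagocyte-like, 121 of 141 cluster 2 and 42 of 43 microglia-like cells.

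**Figure D4:**
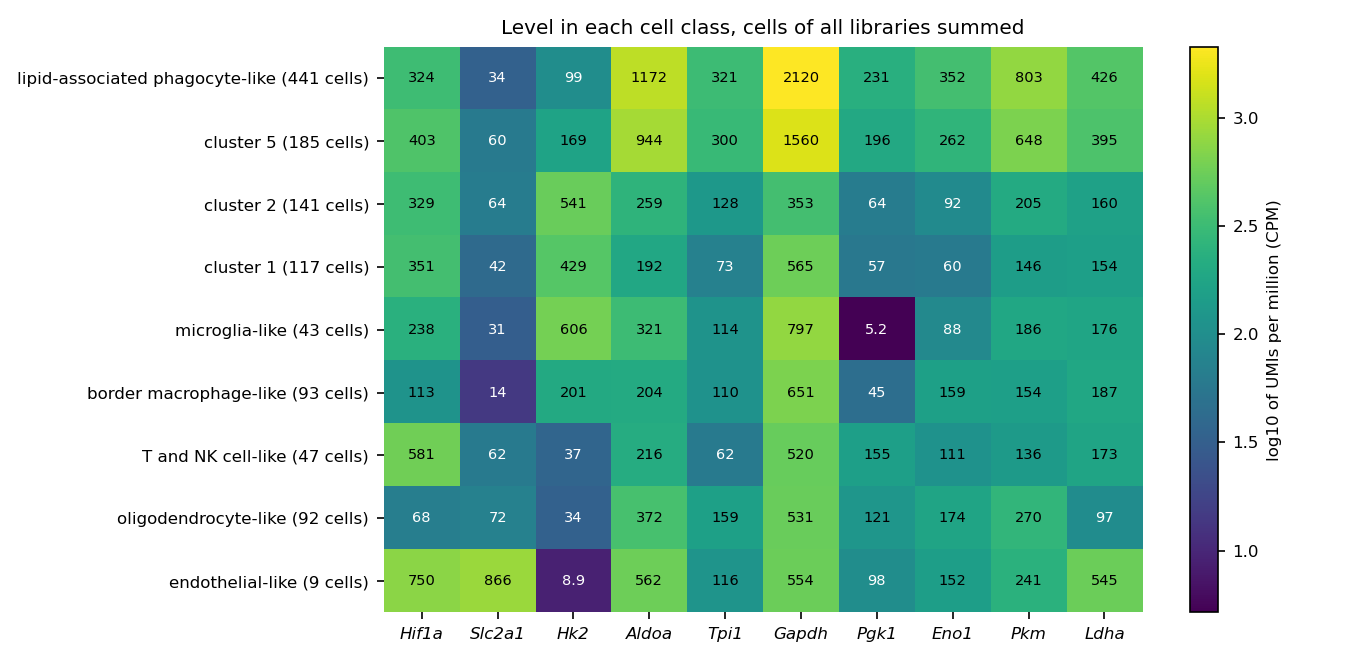
Level of each gene (columns) in each cell class (rows), as CPM over all cells of the class (numbers), coloured on a log10 scale. Lipid-associated phagocyte-like cells had 2120 CPM of Gapdh and 99.4 CPM of Hk2, whereas cluster 2 had 353 and 541 CPM.

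Within libraries the contrast between Hk2 and the later enzymes was seen for some of the enzymes. In each of the 4 optic nerve libraries lipid-associated phagocyte-like cells had less Hk2 and less Slc2a1 than cluster 2 cells, and more Aldoa, Gapdh, Eno1 and Ldha. Pgk1 and Pkm were higher in 3 libraries and lower in 1, Tpi1 was higher in 2 and lower in 2, and Hif1a was higher in 1 and lower in 3. In injured libraries 1 and 3 Hk2 was 121 and 97.4 CPM in lipid-associated phagocyte-like cells and 337 and 493 CPM in cluster 2, while Gapdh was 924 and 2400 CPM in lipid-associated phagocyte-like cells and 382 and 352 CPM in cluster 2. In uninjured libraries 2 and 4 the counts were small: Hk2 had 0 and 1 UMI in 10 and 8 lipid-associated phagocyte-like cells, against 26 and 40 UMIs in 13 and 12 cells of cluster 2. In the same cells Slc2a1 had 0 and 0 UMIs in lipid-associated phagocyte-like cells against 2 and 2 UMIs in cluster 2, Eno1 5 and 1 against 0 and 4 UMIs, and Ldha 6 and 2 against 3 and 9 UMIs. For Slc2a1, Aldoa, Eno1 and Ldha the 95% counting intervals of the 2 classes overlapped in both uninjured libraries. The 2 classes were picked for display after the levels had been seen, and no test was made. Within cluster 2, Hk2 was 337 and 493 CPM in injured libraries, against 1327 and 1184 CPM in uninjured ones, with exact 95% Poisson intervals of 239 to 463 and 414 to 581 against 867 to 1944 and 846 to 1612. Within the same cluster Hif1a had 38 and 94 UMIs (337 and 331 CPM) in injured libraries, against 1 UMI in each uninjured library. These within-cluster values rest on 25 and 90 injured against 13 and 12 uninjured cells. Their intervals cover counting error only and not the spread between cells or libraries. The share of all genes that differed in this way within the cluster was not computed, and an injury effect there was not tested.

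**Figure D5:**
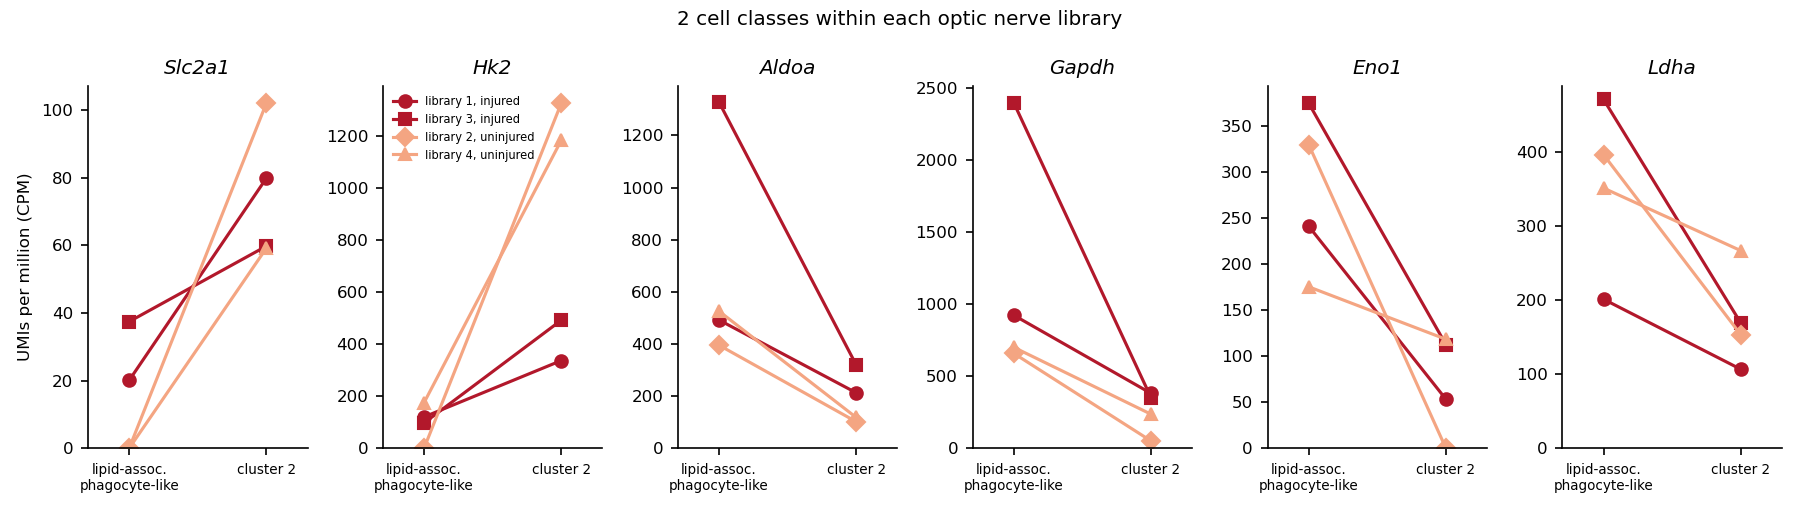
Level (y axes, CPM, from 0) of 6 genes in lipid-associated phagocyte-like cells (left) and cluster 2 cells (right) of the same optic nerve library, with 1 line per library. Slc2a1 and Hk2 were lower and Aldoa, Gapdh, Eno1 and Ldha higher in lipid-associated phagocyte-like cells in 4 of 4 libraries, of which the 2 uninjured ones rest on few UMIs, and the 4 genes not drawn differed in order between libraries.

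Other genes of the pathway were taken from lists by function. Of 18 glycolysis enzymes, 12 could be tested in the retina, where 1 rose (Pgk1) and 2 fell, Aldoa and Ldhb, the lactate dehydrogenase subunit that favours pyruvate, beside 19.7% called over all genes. Ldhb had 194 and 257 CPM in injured retina, against 357 and 633 CPM in uninjured retina (log2 fold change -1.05 ± 0.30, SE, edgeR, adjusted p = 0.0300). In the optic nerve Ldhb had 238 and 269 CPM in injured, against 94.9 and 174 CPM in uninjured libraries, and it was the 1 enzyme of 13 tested whose injury effect differed between tissues (1.03 ± 0.27, SE, limma, optic nerve minus retina in ln units, adjusted p = 0.0365), beside 5.61% of all genes. No enzyme of the 13 tested passed for injury in the optic nerve, as few genes did (0.566%). Effects of 12 lay above 0, with a median of 0.26 over the 13 beside -0.02 over all genes tested (difference of mean ln values). Without injured library 3, 7 of the 10 genes described above had effects below 0.

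Among 11 hexose and lactate transporters 2 could be tested in the retina, and both fell, beside 9.72% of all genes called as lower. Slc2a5 encodes the fructose transporter GLUT5, a gene known for its expression in homeostatic microglia. It had 1 and 0 UMIs in injured retina, against 10 and 10 UMIs (70 and 176 CPM) in uninjured retina. Its log2 fold change was -6.98 ± 0.74 (SE, edgeR, adjusted p = 0.000125), and the ratio of summed counts was 0.00576 with a 95% counting interval of 0.000139 to 0.0360. In the optic nerve 3 UMIs of it were counted, all in injured library 3. Bsg, which encodes the chaperone of lactate transporters, fell as well, with 194 and 164 CPM in injured and 805 and 299 CPM in uninjured retina (-1.72 ± 0.40, SE, edgeR, adjusted p = 0.0129). Bsg, like Slc2a1, is abundant in brain endothelium and reached 4525 CPM in uninjured optic nerve library 4.

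In the remaining lists single genes passed. In the retina 1 of 3 genes tested for pyruvate entry to mitochondria fell, Mpc1, a subunit of the mitochondrial pyruvate carrier (-1.30 ± 0.32, SE, edgeR, log2 fold change, adjusted p = 0.0182). The enzyme of hexosamine synthesis Gfpt1 rose (2.29 ± 0.74, SE, edgeR, adjusted p = 0.0498), with 87 UMIs in injured and 2 UMIs in uninjured retina, a ratio of summed counts of 5.01 with a 95% counting interval of 1.35 to 42.1. None of the 4 pentose phosphate, 8 tricarboxylic acid cycle, 2 HIF pathway or 7 further HIF target genes tested passed there, with 653 of 3312 genes called in all. Among injured libraries Pfkfb3, which makes the activator of phosphofructokinase, was lower in the optic nerve than in the retina (difference of mean ln values -0.42 ± 0.13, SE, limma, adjusted p = 0.0435), and so was the HIF target Higd1a (-0.27 ± 0.09, SE, adjusted p = 0.0463). Among uninjured libraries Ldhb (-0.94), Pgam1 (-0.72), which encodes phosphoglycerate mutase, Hmox1 (-0.50), which encodes haem oxygenase 1, and Mpc1 (-0.49) were lower in the optic nerve (limma, adjusted p = 0.00463, 0.0248, 0.0320 and 0.0238 in that order).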

How the data were processed

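Macrophages and microglia were captured with the 10x Genomics version 2 kit. Per the submitters' processing notes, reads were demultiplexed with bcl2fastq 2.17.1.14, aligned to mm10 with Cell Ranger 1.3 and merged and normalised with Seurat 4.0.3, and per the series' design text only cells of 200 to 6500 genes were kept, 1168 in all. For retina cells the authors deposited raw UMI counts. For optic nerve cells the authors deposited ln values: a gene's UMIs were divided by the cell's total, multiplied by 10000, raised by 1 and put on the natural log scale. All 1374534 optic nerve values above 0 gave whole UMIs within a tolerance of 0.01, from which counts and totals were recovered. A median of 96.5% of an optic nerve cell's total lay in the table. Uninjured retina is 0 in the last 24183 entries, so tests used the first 27998, and 12 repeated rows of the optic nerve were left out.

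Injury in the retina was tested with edgeR 4.0.16 (TMM, filterByExpr, quasi-likelihood) on UMIs summed over 4 libraries. The other comparisons used limma 3.58.1 with trend on mean ln values of 8 libraries, for genes detected in 10% of cells or more, with Benjamini-Hochberg adjustment over all genes tested and a threshold of 0.05. DESeq2 1.42.0, edgeR on recovered counts, log2(CPM + 10), thinning to 1000 UMIs, other filters, subsets of cells and leaving out libraries were alternatives. Cells with fewer than 1000 UMIs were left out of the thinned data, so that setting changes both depth and cells. Leaving out only endothelial-like cells was added after the data had been seen. The fits were tested on simulated data. Clustering in scanpy 1.11.5 left out the genes described and used Leiden at a resolution of 0.6 on 15 neighbours in 30 components of 2000 variable genes. Clusters were named from marker lists, and endothelial-like cells are those in which 5 or more of 14 markers were detected. A class rebuilt in this way may differ from the study's own. No doublet caller was run. One leading gene of a cluster is not reported here. Copies of a gene are annotated transcripts with at least 95% identity over 200 bases. All 10 genes are described in every comparison, and of the pathway lists those that passed are named. The genes, lists and cell markers were chosen with earlier results of these data known. Intervals and the limit of 3 counts for a count of 0 cover counting error only.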

Additional observations from a re-analysis of the deposited data

Results flagged for a closer look

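For 5 of the 10 genes the CPM of every injured library moved one way in the optic nerve and the opposite way in the retina, relative to the uninjured libraries of the same tissue. In mean ln values, the scale of the test, this did not hold for Aldoa, Tpi1 and Pkm. There injured optic nerve library 1 had 0.747 against 0.767 and 0.793 in uninjured libraries 2 and 4 for Aldoa. It had 0.228 against 0.380 and 0.183 for Tpi1, and 0.385 against 0.594 and 0.299 for Pkm. In the retina the mean ln values of Tpi1 overlapped too, at 0.412 and 0.207 in injured against 0.410 and 0.428 in uninjured libraries. So did those of Pkm, at 0.645 and 0.612 against 0.636 and 0.883, whereas those of Aldoa did not. The difference of the 2 injury effects was tested with limma over all 8 libraries, as the optic nerve effect minus the retina effect in ln units, and none of the 5 passed. It was 1.34 ± 0.44 (SE, adjusted p = 0.0778) for Gapdh, 0.68 ± 0.35 (SE, adjusted p = 0.247) for Aldoa, 0.58 ± 0.33 (SE, adjusted p = 0.297) for Pkm and 0.37 ± 0.22 (SE, adjusted p = 0.320) for Tpi1. In CPM all of these genes were higher with injury in the optic nerve and lower in the retina. The difference was -0.24 ± 0.11 (SE, adjusted p = 0.188) for Slc2a1, which ran the opposite way, lower with injury in the optic nerve and higher in the retina. Without endothelial-like cells Slc2a1 no longer did so, since both injured optic nerve libraries (64 and 54 CPM) then lay above both uninjured ones (51 and 33.4 CPM). Among 5298 genes 3.42% had the first pattern and 6.89% the second.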

How the results depend on the processing

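Counts of called genes over the whole table moved with the settings, given here with higher and lower calls in parentheses. For injury in the retina 653 genes were called (331, 322), against 322 (174, 148) with DESeq2, 260 (156, 104) with edgeR over all 8 libraries and 899 (623, 276) with limma on mean ln values. For injury in the optic nerve 30 (19, 11) were called, against 1 (1, 0) with no filter on low values, 53 (29, 24) with edgeR on recovered UMIs, 71 (35, 36) with DESeq2 on recovered UMIs and 1 (1, 0) with cells thinned to 1000 UMIs. For the difference of the injury effects 297 (90, 207) were called, against 28 (14, 14) with no filter, 72 (35, 37) with edgeR, 124 (70, 54) with DESeq2, 101 (32, 69) with limma on log2(CPM + 10), 183 (38, 145) without the 3 non-myeloid cell classes (T and NK, oligodendrocyte and endothelial) and 27 (18, 9) with thinned cells. For injured optic nerve against injured retina 713 (40, 673) were called, against 440 (11, 429) with no filter, 383 (193, 190) with edgeR, 258 (139, 119) with DESeq2, 86 (29, 57) with limma on log2 CPM and 29 (8, 21) with thinned cells. For uninjured optic nerve against uninjured retina 531 (94, 437) were called, against 120 (56, 64) with edgeR, 173 (79, 94) with DESeq2, 353 (230, 123) with limma on log2 CPM and 118 (31, 87) with thinned cells. Leaving out each library in turn gave 415 to 699 for injury in the retina, 7 to 67 for injury in the optic nerve, 86 to 541 for the difference of the injury effects, 143 to 290 for injured optic nerve against injured retina and 227 to 907 for uninjured optic nerve against uninjured retina. The cause of these shifts was not tested.

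Effects of single genes changed sign only where the main test of that comparison had not called them. Some that changed sign had been called under another setting, such as Aldoa and Tpi1 between injured tissues with edgeR on recovered counts. For injury in the retina Hk2 was 0.091 with DESeq2, 0.14 with no filter on low counts, 0.045 with edgeR over all 8 libraries and 0.17 without the 3 non-myeloid classes. Without these classes Slc2a1 was 0.022 for injury in the optic nerve, Hk2 -0.58 for the difference of the injury effects, and Pgk1 0.0098 and Ldha 0.050 for injured optic nerve against injured retina. With thinned cells Ldha was -0.16 for injury in the optic nerve. The difference of the injury effects was 0.23 for Hif1a, -0.22 for Hk2, -0.014 for Eno1 and -0.077 for Ldha with thinned cells. Thinned cells also gave 0.056 for Pgk1 and 0.24 for Ldha between injured tissues, and 0.27 for Eno1 and 0.32 for Ldha between uninjured tissues. With edgeR, DESeq2 and limma on log2 CPM, in that order, the difference of the injury effects was 1.22, 1.19 and 0.80 for Hif1a and -0.59, -0.62 and -0.80 for Hk2. In the same order injured optic nerve against injured retina gave 0.60, 0.58 and 0.38 for Slc2a1, 1.10, 1.05 and 0.67 for Pgk1 and 1.05, 1.05 and 0.76 for Ldha. Uninjured optic nerve against uninjured retina gave 0.52, 0.53 and 0.37 for Eno1 and 0.13, 0.17 and 0.16 for Ldha.

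Leaving out each library in turn, Hk2 ran from -0.41 to 0.87 for injury in the retina. For injury in the optic nerve Aldoa ran from -0.033 to 0.94, Tpi1 from -0.054 to 0.57, Pgk1 from -0.012 to 0.42, Pkm from -0.061 to 0.96 and Ldha from -0.21 to 0.35, with the lowest value of all 5 genes without library 3. For the difference of the injury effects Hif1a ran from -0.24 to 0.21, Hk2 from -0.16 to 0.25, Pgk1 from -0.41 to 0.026 and Ldha from -0.096 to 0.47. Between injured tissues Aldoa ran from -0.086 to 0.88, Tpi1 from -0.082 to 0.54, Gapdh from -0.18 to 0.85, Pgk1 from -0.24 to 0.19, Pkm from -0.24 to 0.78 and Ldha from -0.30 to 0.26. Between uninjured tissues Eno1 ran from -0.23 to 0.076 and Ldha from -0.43 to 0.016. In a group with 1 library left, that library is assumed to vary like the others. Of the 90 levels by cell class, 57 stayed within their counting interval after thinning and 33 did not.

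No paired analysis was possible because the injured retina samples are held as 2 pools of 2 samples, the uninjured ones carry other numbers, and the optic nerve numbers differ between injured and uninjured libraries. With 12 to 31 cells per uninjured retina library and 28 cells in uninjured optic nerve library 4, single genes rest on few UMIs. The retina difference of Slc2a1, with 5 UMIs in uninjured retina, was not detectable at this depth, as its ratio of summed counts was 1.71 with a 95% counting interval of 0.699 to 5.41.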

Other observations

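Across the 8 libraries the mean ln value of the 10 genes was most alike, by Pearson's r over all genes tested, to that of Mif (0.948), Ucp2 (0.939), Tmem37 (0.939), Aurkaip1 (0.925) and Uqcc2 (0.924). Among the 10 genes themselves Aldoa and Pkm (0.952), Tpi1 and Pkm (0.945) and Aldoa and Tpi1 (0.927) were the most alike, whereas Hk2 had r between -0.495 (with Eno1) and 0.389 (with Ldha), and Slc2a1 and Gapdh had -0.705. These values describe 8 libraries that differ in depth and cell makeup, of which injured optic nerve library 3 is the highest for 7 of the 10 genes.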
